A study of Mus musculus with 8 samples.

Results

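The cholesterol genes described here are 29 protein-coding mouse genes that make, sense, move or store cholesterol, out of 21883 protein-coding genes on chromosomes 1 to 19, X and Y. They were listed by symbol for their place in the pathway, a rule that uses no measured value, and all were found in the RefSeq annotation of GRCm38.p6, the build also called mm10. A gene was called bound in a peak list when the centre of a peak lay in its span or within 5000 bp of it. A closer rule asked for a peak centre within 1000 bp of a gene end, called a boundary peak below.

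Oligodendrocytes wrap axons in myelin, a membrane rich in cholesterol, and brain cells make most of that cholesterol themselves because lipoproteins hardly cross the blood-brain barrier. Synthesis runs from acetyl-CoA through mevalonate and the isoprenoids to squalene, then to lanosterol and on to cholesterol. When membrane sterol is low, Scap carries SREBP2, the product of Srebf2, away from the Insig proteins of the endoplasmic reticulum, and the released SREBP2 fragment activates most genes of the pathway through sterol response elements in their promoters, usually beside sites for the factors NF-Y and Sp1.

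Chromatin immunoprecipitation with sequencing mapped Qki-5, the nuclear form of the RNA-binding protein Quaking, and PPARb, a nuclear receptor for lipids, in mouse oligodendrocytes. Differentiated cells came from neural stem cells of an FvB/C57BL6 hybrid background with ectopic PPARb, HA-tagged by the sample titles, and were kept at passage 7 with IGF-1 at 100 ng/mL and T3 at 50 ng/mL. All differentiated-cell libraries, the input included, carried the introduced PPARb, so PPARb and HA peaks there include those of the introduced protein, and no differentiated cells without it were compared. The promoter that drove it was not stated in the labels. Isolated cells were bound to O4 beads from C57BL6 mouse brain and were at passage 0, with no introduced receptor stated. In differentiated cells 4 targets were mapped, namely PPARb, its HA tag, Qki-5 and RNA polymerase II (Pol II), and in isolated cells 2, PPARb and Qki-5. Each cell kind had its own input. Each of the 8 groups had 1 library. No value therefore has a replicate error, and differences between samples were not tested. Intervals of peak heights cover counting error only. Intervals of shares treat the genes as separate draws and are not an error between libraries.

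Depth was 12624236 to 24880851 tags per antibody library, and the lists used held 13267 to 30175 peaks in differentiated cells and 8375 Qki-5 and 1391 PPARb peaks in isolated cells. Tags in peaks made up 1.39% to 4.62% of the differentiated-cell libraries, and in isolated cells 0.849% of the Qki-5 and 0.116% of the PPARb library. Peak height is the authors' tag count of a 200 bp peak scaled to 10000000 tags, on which scale 1 tag is worth 0.402 to 0.792 and the lowest peaks listed stood between 4.45 and 6.34. A gene without a peak is therefore one where none was detectable at that depth. Of 10 oligodendrocyte marker genes, 5 had a Qki-5 peak in differentiated cells, where 61.1% of the genes outside the cholesterol set had one, and 9 in isolated cells, where 35.6% did. All 5 astrocyte and all 5 neuron markers had Qki-5 peaks in differentiated cells, where Gfap, the astrocyte filament protein, reached 24.9, and none of these 10 had one in isolated cells. Of 5 markers each, microglia had no Qki-5 peak in either cell kind, endothelial cells had 2 in differentiated and 4 in isolated cells, and precursors and neural stem cells had 2 in each. By the closer rule 2 oligodendrocyte markers had Qki-5 in each cell kind, against 46.3% and 26.4% of genes outside the cholesterol set. No astrocyte marker had it in either, and 4 neuron markers had it in differentiated and 0 in isolated cells. Endothelial markers had it at 0 and 2, precursor and neural stem cell markers at 0 and 1, and microglia markers at none. A peak near a marker shows neither expression nor a cell count, and binding in a minor cell type cannot be told apart here from binding in oligodendrocytes. The part of other cell types in the results below was not tested.

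Nearly every cholesterol gene was occupied in differentiated cells. Qki-5 peaks lay at 28 of the 29 genes (96.6%, 95% exact Clopper-Pearson interval 82.2 to 99.9), against 61.1% of the other protein-coding genes. PPARb peaks lay at 27 (93.1%, 77.2 to 99.2), against 57.2% of the others, and HA peaks at 28 (96.6%), against 60.5%. Pol II peaks lay at 25 (86.2%, 68.3 to 96.1), against 47.5%. In isolated cells Qki-5 peaks lay at 20 of the 29 genes (69.0%, 49.2 to 84.7), against 35.6% of the others, and PPARb peaks at 5 (17.2%, 5.85 to 35.8), against 7.55%. The share of other genes lay below the interval of the cholesterol genes in every list except PPARb in isolated cells. Genes of the same library are not replicates, so this is a description and not a test. At 8-fold over input in place of 4-fold, PPARb lay at 13 cholesterol genes in differentiated cells (44.8%), against 44.0% of other genes, and none of the 2000 tallest HA peaks lay at a cholesterol gene, whereas 8.26% of other genes had such a peak. The median gene length was 17910 bp for the cholesterol genes and 17168.5 bp for the others.

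The closer rule gave the same order. Boundary peaks were found at 25 cholesterol genes for Qki-5 (86.2%, against 46.3% of the others), 24 for PPARb (82.8%, against 42.0%), 25 for HA (86.2%, against 46.4%) and 22 for Pol II (75.9%, against 36.3%) in differentiated cells. In isolated cells there were 16 for Qki-5 (55.2%, against 26.4%) and 3 for PPARb (10.3%, against 5.0%). Pmvk, Fdft1 and Insig2 had no boundary peak in any list, as did 48.5% of other genes. Under the wider rule no cholesterol gene had peaks in fewer than 3 of the 6 lists, whereas 34.3% of other genes had peaks in none. By that rule peaks in 5 lists were found at 17 cholesterol genes, against 23.9% of other genes. Peaks in 4 lists were found at 6, against 19.2%, and in 3 lists at 4, against 7.61%. Srebf2 and Insig1 had peaks in all 6, as did 6.26% of other genes.

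**Figure D1:**
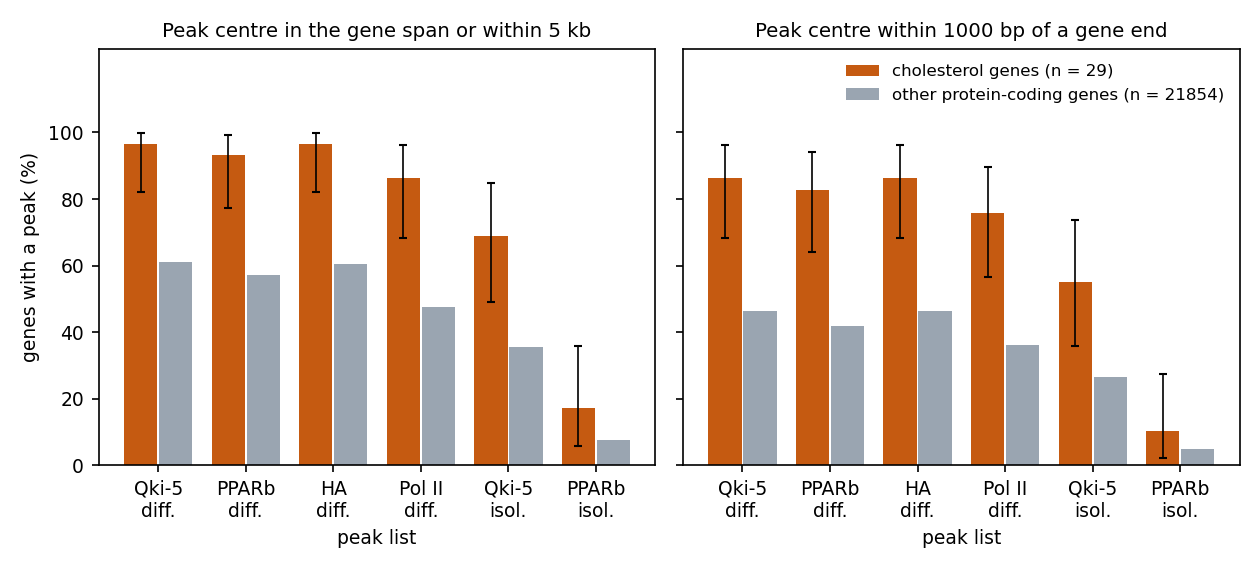
Share of genes with a peak in each list, in percent, for cholesterol genes (orange) and other protein-coding genes (grey), under the wider rule on the left and the closer rule on the right. Error bars are 95% exact Clopper-Pearson intervals of the 29 genes; the orange bars stand above the grey ones in all 6 lists, with the lowest pair, 17.2% and 7.55% under the wider rule, for PPARb in isolated cells.

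Pol II marks genes that are likely to be in use, and among such genes the shares of cholesterol genes and other genes lay close together in differentiated cells. Of the 22 cholesterol genes with a Pol II boundary peak, 21 had a Qki-5 boundary peak (95.5%), against 95.6% of the 7931 other genes with a Pol II boundary peak. For PPARb the shares were 20 of 22 (90.9%), against 91.0%. In isolated cells, where Pol II was not mapped, the same 22 genes had Qki-5 boundary peaks at 15 (68.2%), against 59.3% of those other genes, and PPARb boundary peaks at 2 (9.09%), against 12%. Of the 7 cholesterol genes without a Pol II boundary peak, 4 had Qki-5 and 4 had PPARb boundary peaks in differentiated cells, against 18.2% and 14.1% of other genes without one.

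The promoters under most of these peaks show what the occupied sequence looks like. RefSeq promoter windows, from 250 bases before to 50 bases after an annotated start, were matched for 24 of the 29 genes, and Fdps, Fdft1, Sqle, Stard4 and Npc1 were not matched. Shown are the 6 genes whose window held the peak centres of most lists, and Hmgcs1, added after its values were seen because its window alone held a sterol response element core. Each sequence is the 250 bases before the start, 5′ to 3′ on the gene's strand, from RefSeq GRCm38.p6, and capitals mark matches on either strand to the CCAAT box (CCAAT or ATTGG), the GC box (GGGCGG or CCGCCC) and the sterol response element core (TCACNCCAC). The windows are Lss at chr10:76531355-76531604 on the plus strand, Insig2 at chr1:121327679-121327928 on the minus strand, before an inner start of the gene, Mvk at chr5:114444019-114444268, Dhcr7 at chr7:143822917-143823166, Mylip at chr13:45389492-45389741, Srebf2 at chr15:82147019-82147268 and Hmgcs1 at chr13:119690101-119690350, the last 5 all on the plus strand.
Lss: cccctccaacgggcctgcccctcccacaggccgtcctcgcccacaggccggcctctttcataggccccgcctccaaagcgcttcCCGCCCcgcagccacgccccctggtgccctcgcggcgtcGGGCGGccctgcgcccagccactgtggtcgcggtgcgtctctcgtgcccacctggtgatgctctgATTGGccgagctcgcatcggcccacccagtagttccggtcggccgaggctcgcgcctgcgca
Insig2: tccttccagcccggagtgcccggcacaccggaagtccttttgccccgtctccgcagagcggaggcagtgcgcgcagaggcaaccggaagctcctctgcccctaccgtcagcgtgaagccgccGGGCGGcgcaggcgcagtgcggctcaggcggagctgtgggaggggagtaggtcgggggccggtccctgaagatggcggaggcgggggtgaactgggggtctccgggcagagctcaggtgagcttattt
Mvk: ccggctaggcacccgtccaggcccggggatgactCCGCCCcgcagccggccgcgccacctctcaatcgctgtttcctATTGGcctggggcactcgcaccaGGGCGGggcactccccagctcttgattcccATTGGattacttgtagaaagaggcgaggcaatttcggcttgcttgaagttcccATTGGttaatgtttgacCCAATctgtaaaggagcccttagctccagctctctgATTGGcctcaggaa
Dhcr7: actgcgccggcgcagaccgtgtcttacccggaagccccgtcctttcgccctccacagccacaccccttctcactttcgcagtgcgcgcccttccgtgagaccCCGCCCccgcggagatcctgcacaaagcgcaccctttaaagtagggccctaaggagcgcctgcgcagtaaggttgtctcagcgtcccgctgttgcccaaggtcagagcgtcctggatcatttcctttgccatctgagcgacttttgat
Mylip: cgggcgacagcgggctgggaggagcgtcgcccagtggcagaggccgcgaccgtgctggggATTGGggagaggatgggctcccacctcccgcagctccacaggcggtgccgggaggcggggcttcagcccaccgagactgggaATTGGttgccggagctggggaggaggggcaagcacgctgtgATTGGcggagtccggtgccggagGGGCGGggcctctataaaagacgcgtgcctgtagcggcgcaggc
Srebf2: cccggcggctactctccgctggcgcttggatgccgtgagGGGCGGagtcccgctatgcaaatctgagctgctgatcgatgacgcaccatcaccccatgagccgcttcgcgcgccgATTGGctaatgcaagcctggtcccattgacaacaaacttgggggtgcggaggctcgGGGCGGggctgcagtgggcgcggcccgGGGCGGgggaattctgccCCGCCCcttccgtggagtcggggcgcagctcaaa
Hmgcs1: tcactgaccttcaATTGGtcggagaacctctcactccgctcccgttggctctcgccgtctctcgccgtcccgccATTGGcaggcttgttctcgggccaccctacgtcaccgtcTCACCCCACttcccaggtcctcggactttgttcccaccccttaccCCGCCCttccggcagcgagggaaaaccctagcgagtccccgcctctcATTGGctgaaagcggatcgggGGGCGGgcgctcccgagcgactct

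The CCAAT box, which NF-Y binds, gave the widest difference in share from other promoters among the 8 motifs searched. It occurred in 21 of the 24 cholesterol windows (87.5%), against 39.1% of 17467 other windows and 39.4% of the 8188 of these whose gene had a Qki-5 boundary peak in differentiated cells. Acat2, Dhcr7 and Scap were the 3 without it. The window counted is 1 per gene, at the outermost start, and is not always the occupied one. Those of Insig2, Pmvk, Scap, Soat1, Acat2 and Ebp held no peak centre in any list, and the occupied inner window of Insig2 printed above has no CCAAT box. At least 2 copies occurred in 13 cholesterol windows (54.2%), against 13.4% of the others, and at least 3 copies in 8 (33.3%), against 4.17%. Mvk had 5 copies in its window, and Hmgcs1 and Nsdhl had 4 each. Among other genes with a Pol II boundary peak, 38.8% of 6481 windows had the box. A match is a string of letters, not a shown site.

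The GC box, which Sp1 binds, also occurred in 21 cholesterol windows (87.5%), against 46.3% of other windows and 68.2% of those with a Qki-5 boundary peak. The E box CACGTG, a core that SREBPs and other factors of their class can bind, occurred in 4 (16.7%), those of Hsd17b7, Sc5d, Scap and Insig1, against 7.9% of other windows. The strict core TCACNCCAC occurred in Hmgcs1 alone (4.17%), against 1.17% of the others. The nuclear receptor half-site AGGTCA occurred in 3 (12.5%), those of Hmgcs1, Dhcr7 and Insig1, against 14.5%. The direct repeat of this half-site with 1 base between, to which PPARs bind with RXR, occurred in no cholesterol window and in 0.0515% of the others. ACTAAC, the core of the RNA motif that Quaking binds, occurred in Idi1 alone (4.17%), against 5.42%, and the cyclic AMP response element TGACGTCA in no cholesterol window, against 2.33% of the others. The GC content of the windows had a median of 62.2% for cholesterol genes, 56.3% for all others and 62.0% for others with a Qki-5 boundary peak.

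**Figure D2:**
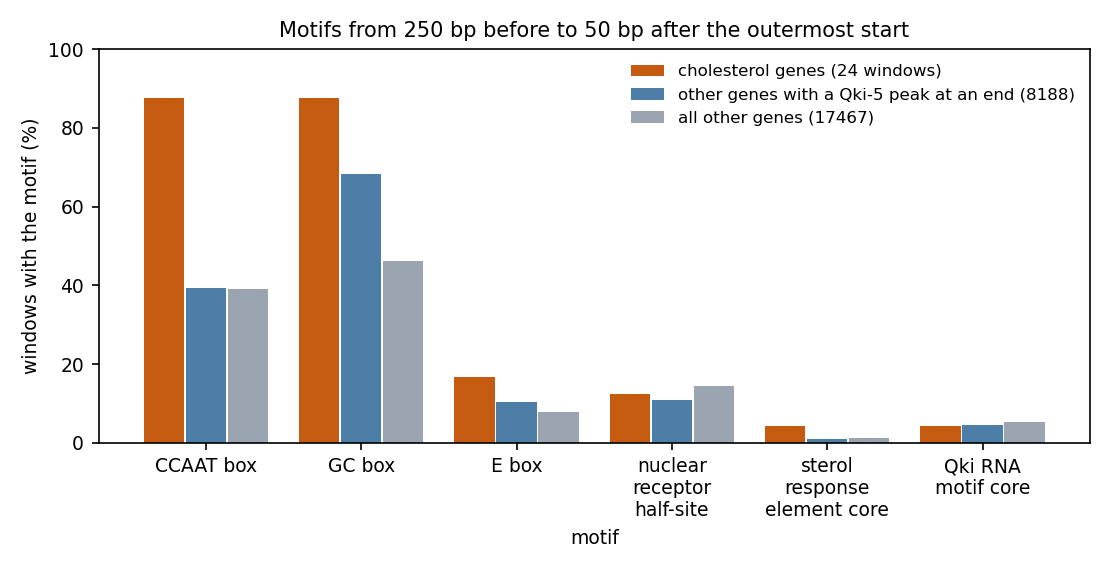
Share of promoter windows, in percent, that hold each motif on either strand, for the 24 cholesterol genes (orange), others with Qki-5 at a gene end in differentiated cells (blue) and all other genes (grey). The CCAAT box stood at 87.5% in cholesterol genes and near 39% in both other sets, whereas the GC box stood at 87.5%, 68.2% and 46.3%.

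Among the 8 genes of the mevalonate and isoprenoid stage, all 8 were bound by Qki-5, PPARb and HA and 7 by Pol II in differentiated cells, and 5 by Qki-5 and 1 by PPARb in isolated cells. Mvk, mevalonate kinase, had the tallest boundary peaks of the stage for Qki-5 and PPARb. In differentiated cells its Qki-5 peak stood at 24.9 (95% exact Poisson interval 18.2 to 33.3), its PPARb peak at 22.3 (16.5 to 29.3), its HA peak at 21.4 and its Pol II peak at 14.1. In isolated cells its Qki-5 peak stood at 22.0 (16.2 to 29.1), rank 60 of 8375. The Qki-5 and PPARb peaks of differentiated cells were centred 177 and 205 bp before the gene, chr5:114444264-114460591, and 28 bp from each other, both inside the window printed above with its 5 CCAAT boxes. Mmab, a cobalamin enzyme gene, has an end within 1000 bp of 6 of the 8 boundary peaks of Mvk, so these peaks cannot be given to either gene alone. Hmgcs1, the cytosolic HMG-CoA synthase, had a Qki-5 peak of 23.2, a PPARb peak of 15.6, an HA peak of 19.8 and a Pol II peak of 16.5 in differentiated cells and a Qki-5 peak of 18.8 in isolated cells, rank 212. Its Qki-5 peak of differentiated cells was centred 255 bp before the start and its PPARb peak 186 bp before it.

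Fdps, the farnesyl diphosphate synthase, had a Qki-5 peak of 19.4, a PPARb peak of 12.5 and HA at 12.7 at its boundary in differentiated cells, with no Pol II peak. Its only peaks in isolated cells, a Qki-5 peak of 7.33 and a PPARb peak of 6.53, lay 3471 and 3226 bp outside the gene. Mvd, the mevalonate diphosphate decarboxylase, had a Qki-5 peak of 18.3, a PPARb peak of 14.7, an HA peak of 13.5 and a Pol II peak of 8.84 in differentiated cells. Acat2, the cytosolic thiolase that opens the pathway, had in the same cells a Qki-5 peak of 13.8, a PPARb peak of 7.57, an HA peak of 15.1 and a Pol II peak of 12.5. Neither Mvd nor Acat2 had a peak in isolated cells.

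The 3 remaining genes of this stage had Qki-5 and PPARb peaks that did not overlap. Ggps1, whose product makes the geranylgeranyl group used to prenylate proteins, had a Qki-5 peak of 18.3, a PPARb peak of 12.5, an HA peak of 25.3 and a Pol II peak of 20.5 in differentiated cells and a Qki-5 peak of 11.9 in isolated cells. All 8 of its boundary peaks also lay within 1000 bp of an end of Arid4b. Idi1, the isopentenyl diphosphate isomerase, had a Qki-5 peak of 17.1, a PPARb peak of 8.46, an HA peak of 9.51 and a Pol II peak of 8.04 in differentiated cells, and a Qki-5 peak of 7.33 in isolated cells. Its Qki-5 peak of differentiated cells was centred 22 bp before the start, and its PPARb peak 185 bp after it. Pmvk, phosphomevalonate kinase, had low peaks inside the gene only, a Qki-5 peak of 10.5, a PPARb peak of 5.79, an HA peak of 8.71 and a Pol II peak of 8.04, all between -673 and -272 bp of an inner annotated start (negative is before it), and none in isolated cells.

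The 3 enzymes from squalene to lanosterol were all bound by Qki-5, PPARb and HA in differentiated cells and by Qki-5 in isolated cells. Fdft1, squalene synthase, the enzyme that commits isoprenoids to sterols, had a Qki-5 peak of 24.9 (18.2 to 33.3), a PPARb peak of 11.6, an HA peak of 18.2 and a Pol II peak of 8.84 in differentiated cells and a Qki-5 peak of 15.1 in isolated cells. Its Qki-5 peaks of both cell kinds lay inside the annotated span, 3681 and 3694 bp from its nearer end, and Fdft1 had no boundary peak in any list. Sqle, squalene epoxidase, an oxygen-dependent step under tight control, had a Qki-5 peak of 21.6, a PPARb peak of 15.6, an HA peak of 16.6 and a Pol II peak of 7.23 in differentiated cells, and a Qki-5 peak of 10.5 in isolated cells. Lss, lanosterol synthase, had a Qki-5 peak of 13.8, a PPARb peak of 9.79 and HA at 14.3 in differentiated cells and a Qki-5 peak of 12.4 and a PPARb peak of 7.61 in isolated cells, with no Pol II peak. Its 5 peaks were centred 69 to 136 bp before the start, all inside the window printed above, and the Qki-5 and PPARb centres of differentiated cells were 2 bp apart.

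Of the 9 genes from lanosterol to cholesterol, 8 were bound by Qki-5, 8 by PPARb, 8 by HA and 7 by Pol II in differentiated cells, and 6 by Qki-5 and 1 by PPARb in isolated cells. Cyp51, which removes a methyl group from lanosterol, had a Qki-5 peak of 17.7, a PPARb peak of 11.1, an HA peak of 15.8 and a Pol II peak of 10.9 in differentiated cells and a Qki-5 peak of 15.6 in isolated cells. Lbr, a sterol reductase that also anchors lamin B at the nuclear envelope, had a Qki-5 peak of 16.6, a PPARb peak of 12, an HA peak of 22.2 and a Pol II peak of 8.44 in differentiated cells, and a Qki-5 peak of 16.9 in isolated cells. Tm7sf2, the other reductase of the same step, had the tallest Qki-5 peak assigned to any cholesterol gene, 28.2 (21.0 to 37.1). Its tallest PPARb peak was 18.2 and its tallest HA peak 24.6 in differentiated cells, with no Pol II peak within 5000 bp. In isolated cells it had a Qki-5 peak of 13.3 and a PPARb peak of 9.24. None of these peaks lay at the Tm7sf2 start, and they did not share a single site. The tallest Qki-5 peak was 4977 bp outside the gene, within 1000 bp of Fau and Mrpl49, as were both PPARb peaks. A Pol II peak of 14.1 overlapped this Qki-5 peak, but its centre lay 5056 bp outside the gene. The HA peak of 24.6 and the isolated-cell Qki-5 peak of 13.3 lay 1548 and 1603 bp outside it, within 1000 bp of Znhit2. At its own start Tm7sf2 had a Qki-5 peak of 13.3 and a PPARb peak of 6.68, within 1000 bp of an end of Vps51 as well.

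Taking the tallest boundary peak of each gene, Qki-5 in differentiated cells was lowest at the X-linked genes Nsdhl and Ebp. Nsdhl, a dehydrogenase that helps to remove methyl groups from the ring system, had a Qki-5 peak of 10.5, a PPARb peak of 6.68 and HA at 8.71, and no Pol II peak. Ebp, the sterol isomerase, had a Qki-5 peak of 7.19 (3.83 to 12.3), a PPARb peak of 5.34 (2.76 to 9.33) and a Pol II peak of 7.23, and no HA peak. Neither had a peak in isolated cells. All 3 boundary peaks of Nsdhl lay within 1000 bp of an end of Cetn2, and 2 of the 3 of Ebp within 1000 bp of an end of Porcn. Other X-linked genes were also low, with 32.8% of 964 bound by Qki-5 in differentiated cells, against 62.4% of other autosomal genes, and a median height of 8.85, against 15.5. The sex and the X copy number of the cells are not given in the sources used here.

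Sc5d, the desaturase before the last step, had a Qki-5 peak of 17.7, a PPARb peak of 9.79, an HA peak of 23.8 and a Pol II peak of 8.04 in differentiated cells, but no peak in isolated cells. Dhcr7, the reductase that yields cholesterol itself, had a Qki-5 peak of 14.4, a PPARb peak of 13.8, an HA peak of 17.4 and a Pol II peak of 8.44 in differentiated cells, and a Qki-5 peak of 13.3 in isolated cells. Its Qki-5 and PPARb centres were 17 bp apart, in a window with a GC box and no CCAAT box, and an end of Nadsyn1 lies within 1000 bp. Hsd17b7, a ketoreductase that works with Nsdhl, had a Qki-5 peak of 13.3, a PPARb peak of 7.12, an HA peak of 11.9 and a Pol II peak of 15.3 in differentiated cells, and a Qki-5 peak of 11 in isolated cells, and its Qki-5 and PPARb peaks of differentiated cells did not overlap.

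Msmo1, an oxidase that works in the same methyl-removing steps as Nsdhl and Hsd17b7, was the exception. It had no Qki-5 and no PPARb peak in differentiated cells, where HA reached 17.4 (10.9 to 26.4), centred 1 bp inside the start, and Pol II reached 10. In isolated cells its Qki-5 peak reached 16.5 (11.5 to 22.8), rank 519 of 8375, centred 142 bp before the start. It was the only cholesterol gene with Qki-5 in isolated cells alone, a state held by 255 other genes (1.17%).

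**Figure D3:**
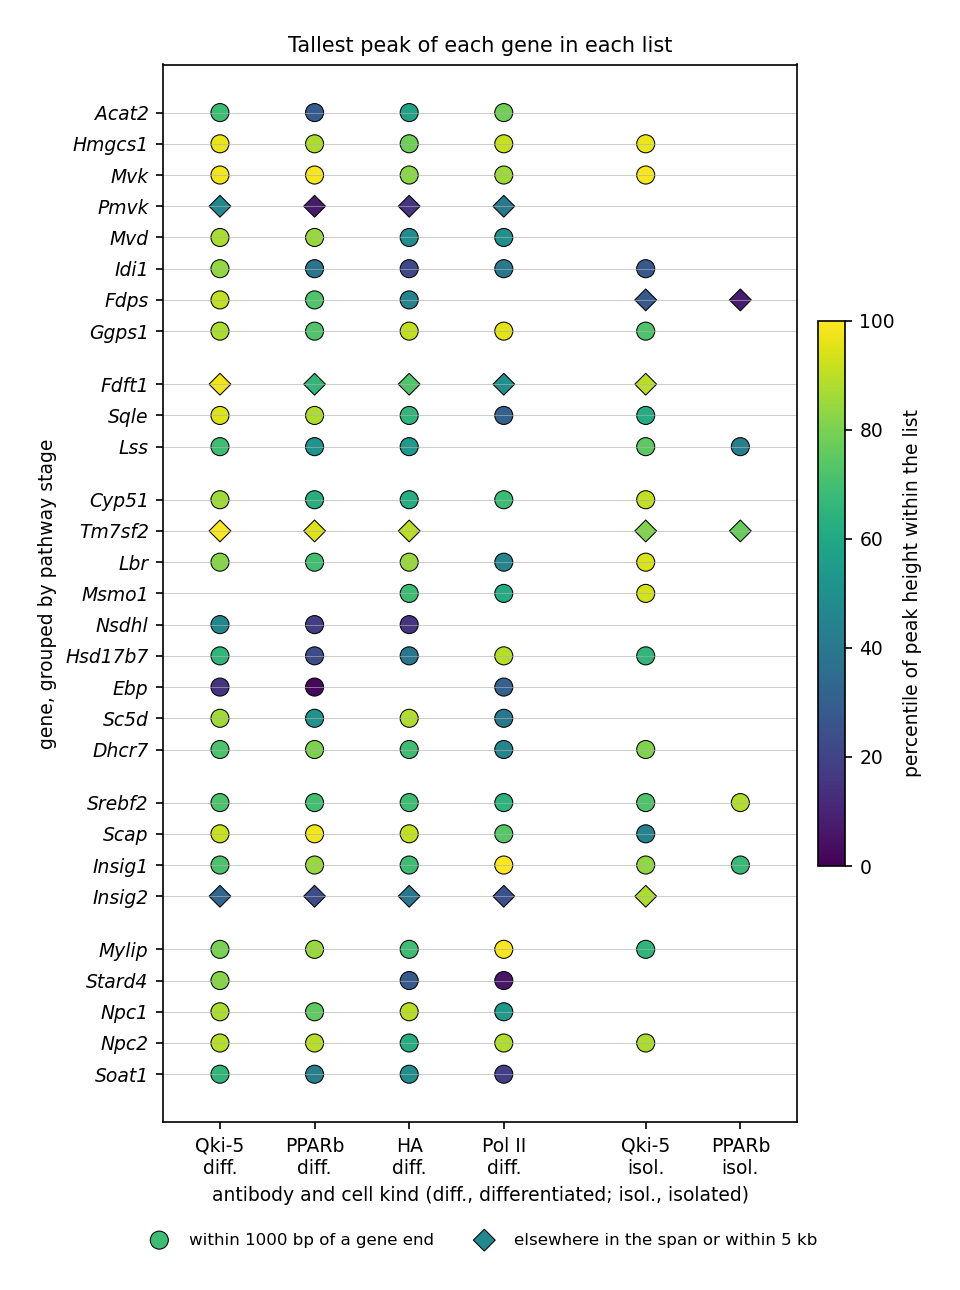
Each row is a cholesterol gene, grouped by pathway stage, and each column a peak list; a mark is the gene's tallest peak, circles within 1000 bp of a gene end and diamonds elsewhere, coloured by the percentile of its height in that list. Rows are filled across the 4 lists of differentiated cells with few gaps, such as Qki-5 and PPARb at Msmo1, whereas the column of PPARb in isolated cells holds 5 marks.

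The 4 genes that sense sterol were bound in all 4 lists of differentiated cells, as were 22 of the 29 cholesterol genes and 44.7% of other genes. All 4 were also bound by Qki-5 in isolated cells, as were 35.6% of other genes. Srebf2, at chr15:82147269-82205379, had a Qki-5 peak of 14.4, a PPARb peak of 12, an HA peak of 17.4 and a Pol II peak of 10.4 in differentiated cells and a Qki-5 peak of 11.9 and a PPARb peak of 10.3 (6.22 to 16.1) in isolated cells. The isolated-cell Qki-5 and PPARb peaks of Srebf2 had the same centre, 93 bp before the start, and this PPARb peak ranked 136 of 1391, the highest of the set. Scap, the SREBP escort, had a Qki-5 peak of 19.9, a PPARb peak of 21.4 (15.7 to 28.3), an HA peak of 25.3 and a Pol II peak of 11.7 in differentiated cells, and a Qki-5 peak of 8.7 in isolated cells. Its PPARb peak ranked 488 of 26404, and its PPARb and Qki-5 centres were 26 bp apart.

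Insig1 and Insig2, which hold Scap in the endoplasmic reticulum, differed widely in Pol II. Insig1, whose own transcription SREBPs raise, had a Pol II peak of 71.5 (61.4 to 82.9), rank 8 of 13267 peaks, with a Qki-5 peak of 14.4, a PPARb peak of 14.7 and HA at 17.4 in differentiated cells and a Qki-5 peak of 13.7 and a PPARb peak of 8.7 in isolated cells. Its Pol II peak was centred at the start itself, and the tallest Qki-5 and PPARb peaks of differentiated cells 596 and 625 bp after it. Qki-5 had peaks on both sides of the start in both cell kinds. A further one of 13.8 stood 86 bp before the start in differentiated cells, and those of isolated cells were 13.7 at 261 bp before it and 10.1 at 714 bp after it. The PPARb peak of isolated cells was 277 bp before the start. Insig2 had a Pol II peak of 6.83 (3.98 to 10.9), a Qki-5 peak of 8.85, a PPARb peak of 7.12 and HA at 11.9 in differentiated cells, all centred within 51 bp of an inner start, and a Qki-5 peak of 14.7 in isolated cells, centred nearest to another inner start, 100 bp after it, and still inside the window printed above.

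The 5 genes of uptake, transport and storage were all bound by Qki-5, HA and Pol II in differentiated cells and 4 by PPARb, but only 2 by Qki-5 and none by PPARb in isolated cells. Mylip, a ubiquitin ligase that removes lipoprotein receptors from the surface, had the set's next tallest Pol II peak, 40.2 (32.7 to 48.9), rank 136, with a Qki-5 peak of 16.0, a PPARb peak of 14.7 and HA at 17.4 in differentiated cells and a Qki-5 peak of 11 in isolated cells. Npc2, which takes cholesterol out of lysosomes with Npc1, had a Qki-5 peak of 18.8, a PPARb peak of 16.0, an HA peak of 15.8 and a Pol II peak of 14.9 in differentiated cells, and a Qki-5 peak of 14.7 in isolated cells, beside Isca2. Npc1, its membrane partner, had a Qki-5 peak of 18.3, a PPARb peak of 12.9, an HA peak of 24.6 and a Pol II peak of 9.24 in differentiated cells, but no peak in isolated cells.

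Soat1 and Stard4 had the lowest Pol II peaks of this group. Soat1, which esterifies cholesterol for storage, had a Qki-5 peak of 13.3, a PPARb peak of 8.9, an HA peak of 13.5 and a Pol II peak of 6.43 in differentiated cells, and no peak in isolated cells. Its tallest PPARb peak lay near the end of the gene, over a Qki-5 peak of 8.85. Stard4, a sterol carrier of the cytosol, had a Qki-5 peak of 16.6, an HA peak of 10.3 and a Pol II peak of 5.63, with no PPARb peak in either cell kind.

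Qki-5 and PPARb peaks overlapped by at least 1 bp at 23 of the 29 cholesterol genes in differentiated cells (79.3%), against 51.3% of other genes. Counted only over Qki-5-bound genes, the share was 82.1% of 28 cholesterol genes, against 83.9% of other genes, so the overlap per bound gene was about the same. At 8-fold over input the overlap was at 11 cholesterol genes (37.9%), against 36.1% of other genes. The 5 genes bound by Qki-5 without such an overlap were Hsd17b7, Idi1, Ggps1, Stard4 and Pmvk. At the 28 overlapping sites the Qki-5 and PPARb centres were a median of 44 bp apart, against 45 bp at 15017 other sites. A peak of HA joined the pair at 20 genes (69.0%, against 45.7%) and both HA and Pol II at 11 (37.9%, against 30.9%). In these counts only the Qki-5 peak had to lie within the 5000 bp limit. The 11 include Tm7sf2, where the overlapping Pol II peak lay 5056 bp outside the gene, so that Tm7sf2 counts elsewhere as without Pol II. The HA and PPARb libraries share the introduced receptor and the input, so their overlap at 24 genes (82.8%, against 50.2%) is not from separate sources. In isolated cells Qki-5 and PPARb overlapped at 3 cholesterol genes (10.3%), Lss, Srebf2 and Insig1, against 6.12% of other genes. The isolated-cell PPARb peak of Tm7sf2, 9.24, also overlapped a Qki-5 peak of 17.4. That Qki-5 peak was centred 5007 bp outside the gene and so was not counted. With a 10 kb window the overlap was at 4 cholesterol genes (13.8%, against 7.27%).

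Qki-5 and PPARb heights were correlated over the overlapping sites. Spearman's rho was 0.84 over 28 cholesterol sites and 0.71 over 15006 other sites in differentiated cells, and 0.69 over 32 cholesterol sites for Qki-5 and HA, against 0.62. It was 0.38 over 15 cholesterol sites for Qki-5 and Pol II, against 0.33. These are descriptions, since all sites share the same pair of libraries and the same input, some genes give more than 1 site, and the openness of the sites was not measured.

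Most cholesterol genes with Qki-5 in differentiated cells also had it in isolated cells, whereas few did with PPARb, whose isolated-cell list was the shortest. Qki-5 was bound in both cell kinds at 19 cholesterol genes (65.5%, against 34.5% of other genes). It was bound in differentiated cells alone at 9 (31.0%, against 26.7%) and in isolated cells alone at Msmo1 (3.45%, against 1.17%). Of cholesterol genes bound in differentiated cells, 67.9% were also bound in isolated cells, against 56.4% of other genes. The 9 bound in differentiated cells alone were Acat2, Pmvk and Mvd of the mevalonate stage, Nsdhl, Ebp and Sc5d of the last stage, and Npc1, Stard4 and Soat1, that is, no gene of sterol sensing and none from squalene to lanosterol. Their heights in differentiated cells had a median of 13.8 (7.19 to 18.3), against 17.7 (8.85 to 28.2) for the 19 bound in both, and in other genes the medians were 12.7 and 17.1. Qki-5 peaks of the 2 cell kinds overlapped at 16 cholesterol genes (55.2%), against 29.7% of other genes, and the heights at 18 such sites had a rho of 0.45, against 0.56 at 5430 other sites. PPARb was bound in both cell kinds at 5 genes, Fdps, Lss, Tm7sf2, Srebf2 and Insig1 (17.2%, against 7.33% of other genes). It was bound in differentiated cells alone at 22 (75.9%, against 49.9%) and in neither at Msmo1 and Stard4 (6.9%, against 42.6%). Its peaks of the 2 cell kinds overlapped at 3 genes, Lss, Srebf2 and Tm7sf2 (10.3%, against 6.02% of other genes). The isolated-cell PPARb peak of Tm7sf2 lay 4949 bp outside the gene. Of cholesterol genes with PPARb in differentiated cells, 18.5% had it in isolated cells, against 12.8% of other genes. The 2 cell kinds differ in strain, passage, culture, introduced receptor, input and depth, and these cannot be told apart.

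A larger share of cholesterol genes was bound, but in 4 of the 6 lists the median height at bound genes was within 10% of that at other bound genes. In differentiated cells the median height of the tallest peak was 16.9 for Qki-5 at cholesterol genes, against 15.5 at others, 12 for PPARb, against 12, 17.0 for HA, against 18.2, and 9.24 for Pol II, against 10.4. The widest difference was for Qki-5 in isolated cells, 13.3 at cholesterol genes, against 10.5, with 16 of 20 genes above the median of the others. For PPARb in isolated cells the medians were 8.7 over 5 genes and 8.16. The authors' fold over input was taken as the largest of any peak of a gene, which need not be its tallest peak. By this measure and the wider rule the median was lower at cholesterol genes in all 6 lists. That turned the order for Qki-5 in both cell kinds and for PPARb in isolated cells. The median fold was 13.1 for Qki-5 in differentiated cells, against 16.8 at other genes, 7.88 for PPARb, against 13.9, 12.4 for HA, against 21.1, 9.41 for Pol II, against 12.2, 6.6 for Qki-5 in isolated cells, against 7.08, and 5.31 for PPARb there, against 5.84. Input height under the boundary peaks was computed as height over fold, so it is not a separate check on the fold. It had a median of 1.58 under Qki-5 peaks of cholesterol genes in differentiated cells, against 1.05 at others, and 2.25 under those of isolated cells, against 1.64.

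**Figure D4:**
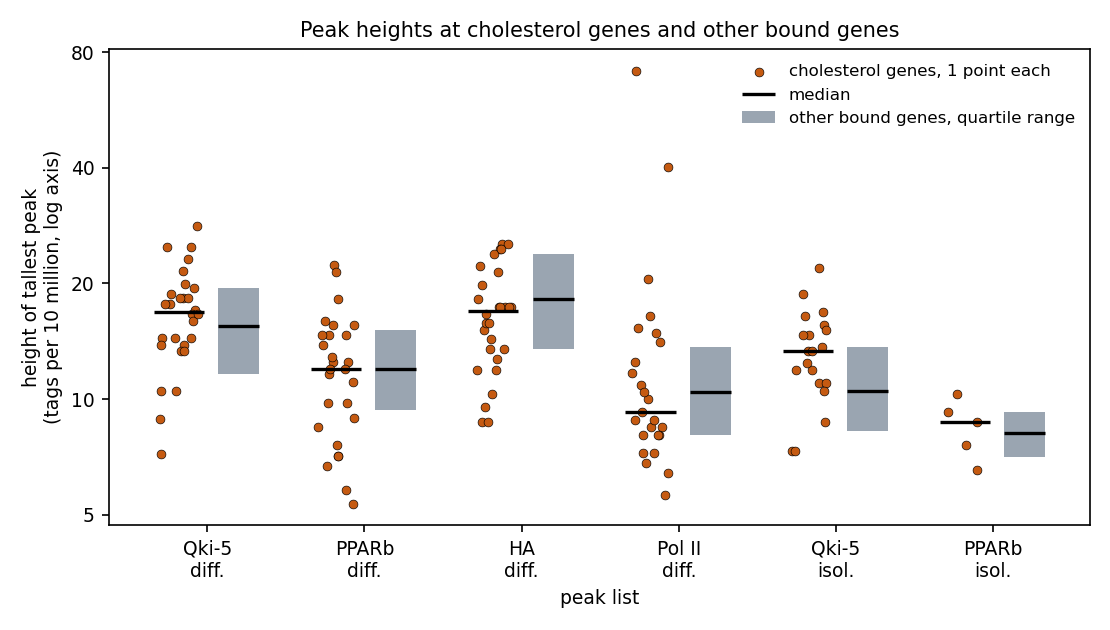
Height of the tallest peak of each bound cholesterol gene (points, 1 per gene, with their median as a line) beside the quartile range and median of other bound genes (grey), per list, on a log axis in tags per 10000000. The points overlap the grey ranges in every list, and the 2 outlying Pol II points are Insig1 at 71.5 and Mylip at 40.2.

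The peaks sat close to starts. Of the 24 cholesterol genes with an annotated start, 23 had a Qki-5 peak within 1000 bp of it in differentiated cells (95.8%, 78.9 to 99.9), against 49.4% of other genes, and the gene without one was Msmo1. The tallest such peak had a median position 82 bp before the start for Qki-5, against 34 bp before it at other genes, and 68 bp before it for PPARb, against 27 bp. HA peaks, which mark the tagged PPARb in the same cells, did not show this shift. Their median position was -2 bp at cholesterol genes, with 12 of 23 before the start, against 6 bp at others. Pol II peaks had a median position 51 bp after the start at cholesterol genes, against 60 bp after it at others. In isolated cells Qki-5 peaks had a median position 95.5 bp before the start, against 40 bp. Single positions varied by more than these differences, from -673 to 596 bp of a start for Qki-5 in differentiated cells.

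**Figure D5:**
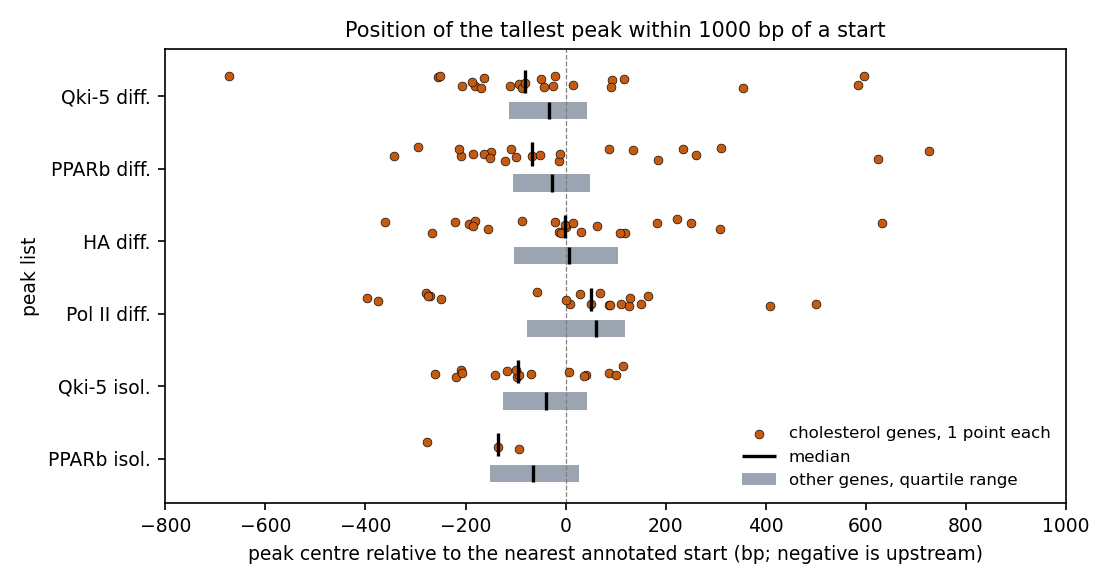
Distance in bp from the nearest annotated start to the centre of the tallest peak within 1000 bp of it, negative before the start, for cholesterol genes (points, median as a line) and other genes (quartile range and median), per list. Most points of Qki-5 and PPARb lie before the start and most of Pol II after it, with medians of -82, -68 and 51 bp in differentiated cells. Points of HA lie on both sides, with a median of -2 bp.

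Peaks that lie close to another gene limit what can be said of 8 members, Mvk, Ggps1, Tm7sf2, Nsdhl, Ebp, Dhcr7, Scap and Npc2. Some or all of their boundary peaks may be those of a neighbour. Of the 31 Qki-5 boundary peaks in differentiated cells, 7 were also within 1000 bp of an end of another protein-coding gene. At least 1 boundary peak that was not remained at 19 of the 25 genes. That is 65.5% of the 29 cholesterol genes, against 34.3% of other genes, where all boundary peaks gave 86.2%, against 46.3%. The nearest peaks on either side of the 1000 bp limit were a Qki-5 peak of 6.08 at Mvk, 882 bp from the end, and a Qki-5 peak of 6.64 at Soat1, 1038 bp from it. At the 5000 bp limit they were the Qki-5 peak of 28.2 at Tm7sf2, 4977 bp away, and an isolated-cell Qki-5 peak of 17.4 at 5007 bp from the same gene.

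Further genes of sterol and isoprenoid biology were counted under the same wider rule. Of 27 further sterol genes, among them efflux pumps, oxysterol enzymes and processing proteases, 21 had Qki-5 (77.8%) and 20 PPARb (74.1%) in differentiated cells, against 61.1% and 57.2% of the genes outside the cholesterol set. In isolated cells 13 had Qki-5 (48.1%) and 2 PPARb (7.41%), against 35.6% and 7.55%, so the PPARb share was at the background. Srebf1, which encodes the SREBP that mainly drives fatty acid synthesis, was bound in all 6 lists, with a Qki-5 peak of 16.0, a PPARb peak of 16.9, an HA peak of 34.1 and a Pol II peak of 9.24 in differentiated cells and a Qki-5 peak of 14.7 and a PPARb peak of 8.16 in isolated cells. Mbtps1, the protease that cuts SREBPs, was bound in all 6 as well, with a Qki-5 peak of 18.8 and a PPARb peak of 11.1 in differentiated cells. Of 12 genes of isoprenoid branches such as dolichol and ubiquinone synthesis, 11 had Qki-5 (91.7%) and 12 PPARb in differentiated cells, and 9 (75%) and 4 (33.3%) had them in isolated cells, beside the same background shares. The CCAAT box occurred in 50.0% of 18 windows of the further sterol genes and in 30.0% of 10 windows of the isoprenoid branches, against the 87.5% of the cholesterol genes.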

How the data were processed

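ChIP-seq peak lists of 6 antibody libraries were analysed, and the 2 input libraries entered only through values of the peak caller. The submitters' processing notes name HOMER 4.10.1, Bowtie 1.2.2, SAMtools 1.8, Trim Galore 0.4.4, bcl2fastq 2.19.1.403 and the build mm10, without saying what each was used for. Per the file headers, the authors called 200 bp peaks per library with HOMER (factor style, FDR 0.001), requiring 4-fold over input at a Poisson p of 0.0001, 4-fold over the local 10000 bp, and centres at least 400 bp apart. Per the file headers, the peak height is a signal, the tag count scaled to 10000000 tags, and tags in 4 lists are raw counts. Fold over input is a ratio made by the authors' caller, per the file headers. The tag directories of Qki-5 in differentiated cells and of the isolated-cell input bear the word merge, with no account of what it covers.

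From these values, peaks on chromosomes 1 to 19, X and Y were assigned to RefSeq GRCm38.p6 genes by their centres, with windows of 5000 and 1000 bp, and peaks of 2 lists counted as shared from 1 bp of overlap. Tag numbers for exact Poisson intervals came from height and depth. Input height is height over fold. Shares have 95% exact Clopper-Pearson intervals. Peaks and genes are not replicates, and with 1 library per group no test was run. The table of gene spans holds no strand, so a boundary may be either end, and starts came from the promoter table. The steps were tested on simulated data (Python 3.11.15, numpy 2.4.6, pandas 2.3.3, scipy 1.17.1). Depth ran from 12624236 to 24880851 tags. The 29 genes, the lists, the motifs and the naming rule were chosen with earlier results of these data known; all cholesterol genes may be named, and up to 4 genes of each other list. Alternatives covered windows, peak thresholds, list length, overlap, height measure, genes with Pol II, and peaks near other genes.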

Additional observations from a re-analysis of the deposited data

How the results depend on the processing

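Over 107 alternatives of 20 results, 74 stayed close in size to the reported value, 30 moved and 3 ratios reversed. The 3 were ratios of the median peak value at cholesterol genes to that at others. They used a gene's largest fold over input in place of its largest height. For Qki-5 the ratio was 0.781 in place of 1.09 in differentiated cells and 0.932 in place of 1.27 in isolated cells. For PPARb in isolated cells it was 0.909 in place of 1.07. By the same measure the ratio moved to 0.565 for PPARb and 0.589 for HA. With peaks inside the span alone, Qki-5 lay at 15 cholesterol genes in differentiated cells (51.7%), against 41.5% of other genes. PPARb lay at 13 there (44.8%, against 39.2%). In isolated cells Qki-5 lay at 8 (27.6%, against 20.5%) and PPARb at 0 (against 3.83%). Both overlapped at 10 in differentiated cells (34.5%, against 32.6%) and at 0 in isolated cells (against 2.89%). With a 2000 bp window, PPARb in isolated cells was at 3 (10.3%, against 6.68%). Among genes with a Pol II boundary peak it was at 2 (9.09%, against 14.9%). At 8-fold over input, PPARb in differentiated cells lay at 13 genes by the wider rule (44.8%, against 44.0%). By the closer rule it lay at 10 (34.5%, against 28.6%). In the same order, Pol II there lay at 14 (48.3%, against 33.8%) and 12 (41.4%, against 24.5%). In isolated cells Qki-5 lay at 6 (20.7%, against 14.2%) and 5 (17.2%, against 9.25%). PPARb there lay at 1 (3.45%, against 1.99%) and 0 (against 1.18%). Overlaps lay at 11 in differentiated cells (37.9%, against 36.1%) and 0 in isolated cells (against 1.24%). With the 2000 tallest peaks of each list, Qki-5 in differentiated cells lay at 5 (17.2%, against 10.5%) and 3 (10.3%, against 7.02%). PPARb there lay at 3 (10.3%, against 8.05%) and 2 (6.9%, against 4.01%), by the wider and the closer rule. HA lay at 0 and 0 (against 8.26% and 4.46%) and Pol II at 7 and 7 (24.1%, against 11.1% and 8.47%). In isolated cells Qki-5 lay at 12 (41.4%, against 12.1%) and 9 (31.0%, against 9.44%). The share of cholesterol genes was above that of other genes in 81 of 95 alternatives of counts. It was below among genes with a Pol II boundary peak for Qki-5, PPARb and HA in differentiated cells (95.5%, 90.9% and 95.5%, against 98.3%, 95.7% and 98.5%) and for PPARb in isolated cells (9.09%, against 14.9%), also by the closer rule, and wherever a count above was 0. Fewer peaks or genes enter under these windows and thresholds; for the reversed ratios the cause was not tested. Leaving out peaks near another gene end, and HA in place of PPARb, were chosen after seeing the data.

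No paired analysis was possible because each group had 1 library and the results come from no test. In the isolated-cell PPARb list the median peak held 14 tags, so counts there rest on few tags per peak.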

Other observations

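Genes of neighbouring metabolic pathways were counted by the wider rule, by which 61.1% of the genes outside the cholesterol set had Qki-5 and 57.2% PPARb in differentiated cells, and 35.6% and 7.55% in isolated cells. Of 22 citric acid cycle genes, all 22 had Qki-5 and 22 had PPARb peaks in differentiated cells, with both overlapping at 20, and 15 had Qki-5 (68.2%) and 1 PPARb (4.55%) in isolated cells. Cs, citrate synthase, which supplies the citrate that leaves mitochondria for lipid synthesis, had a Qki-5 peak of 15.5, a PPARb peak of 10.7 and a Pol II peak of 14.1 in differentiated cells and a Qki-5 peak of 16.0 in isolated cells. Of 21 genes of fatty acid synthesis and elongation, 17 had Qki-5 (81.0%) and 16 PPARb (76.2%) in differentiated cells, and 15 (71.4%) and 3 (14.3%) in isolated cells. Fasn, the fatty acid synthase and also an SREBP target, had a Pol II peak of 62.3, against 71.5 at Insig1. Acly, which turns citrate into the acetyl-CoA that both pathways use, had a Pol II peak of 31.8. The CCAAT box occurred in 63.2% of 19 windows of the citric acid cycle and 58.8% of 17 windows of fatty acid synthesis, against 87.5% of the cholesterol genes and 39.1% of other genes.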
